A study of Mus musculus with 12 samples.

Results

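The stefin A cluster on mouse chromosome 16 encodes small intracellular inhibitors of cysteine proteases. Its 7 genes described here were Stfa1, Stfa2, Stfa2l1, Stfa3, Gm5416, Gm5483 and 2010005H15Rik. They were taken by symbol, and at P3 by Ensembl identifier, because the P3 gene lists name Gm5483 as Cstdc4, Gm5416 as Csta3 and 2010005H15Rik as Csta2. All 7 were listed in every library, among 31053 genes at E16.5 and 22597 at P3. The genes had been picked because some of them differed between Jag1 genotypes in E16.5 monocytes in these same data. Values by genotype at E16.5 are therefore given as a description, without a test, and only the difference between stages was tested.

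Whole liver was profiled by droplet single-cell RNA sequencing from mice of 3 genotypes, Jag1+/+, Jag1Ndr/+ and Jag1Ndr/Ndr, at embryonic stage E16.5 and postnatal stage P3. Ndr is the Nodder missense allele of Jag1, a ligand of Notch receptors, so transcript counts do not check the genotype. The labels listed 2 individuals for each genotype and stage, all bred from heterozygous parents, and homozygous pups at P3 were recognised by jaundice. The E16.5 livers were digested with TrypLE added and the P3 livers without it, and dead cells were removed on magnetic columns at both stages.

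The 12 deposited matrices came from fewer libraries. The E16.5 matrix of Jag1+/+ replicate 2 held the same counts as that of Jag1Ndr/+ replicate 2, and both were counted once as the shared library, beside Jag1+/+ replicate 1, Jag1Ndr/+ replicate 1 and Jag1Ndr/Ndr replicates 1 and 2. At P3, library A was the matrix labelled Jag1+/+ replicate 1, library B was Jag1+/+ replicate 2, library D was Jag1Ndr/+ replicate 1, and library C was the part of Jag1Ndr/Ndr replicate 1 left after removal of the 19927 barcodes it shared with library A. Barcodes of libraries A and B also appeared under the Jag1Ndr/Ndr label, so their genotype is unclear and P3 genotypes were not compared. The matrices of P3 Jag1Ndr/+ replicate 2, with 100% of its barcodes in library B, and of P3 Jag1Ndr/Ndr replicate 2, which shared 18105 of its 33923 barcodes with library A and 16145 with library B, were not used. The 5 libraries of E16.5 and the 4 of P3 had 15024 to 29034 passing barcodes each and 72777843 to 253187351 UMIs in them. A barcode held a median of 5325 to 9256 UMIs in the E16.5 libraries and of 2961 to 6235 in those of P3.

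Stefins, also called type 1 cystatins, are short single-domain proteins without a signal peptide that block papain-like proteases such as cathepsins B, H, L and S by filling the active site cleft. Humans carry a single stefin A gene, CSTA, whereas the mouse carries a tandem array of copies that arose by duplication. In mice the array is known for strong expression in neutrophils and their bone marrow precursors, cells that carry granules rich in serine proteases. Late fetal liver is a blood-forming organ, and it makes neutrophils until this task passes to the bone marrow around birth.

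The array spans 298.582 kb in GRCm38 with the GENCODE vM21 annotation. From the centromeric side, Stfa2l1 lies at chr16:36156811-36161953, Gm5483 at chr16:36184212-36188111, Gm5416 at chr16:36210403-36217788, 2010005H15Rik at chr16:36221468-36257444 and Stfa1 at chr16:36276951-36285373, all on the plus strand. Stfa2 at chr16:36403992-36408457 and Stfa3 at chr16:36450537-36455392 lie on the minus strand. Between these groups sit BC117090 and BC100530, which are annotated stefin A relatives on the minus strand but are not among the 7 genes, and Csta1 lies outside the array. All 7 are annotated as protein-coding.

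Because the copies are alike, reads can fit more than 1 of them. Over the last 300 bases of the longest coding transcript, 51.0% of the 50-base stretches of Stfa1 also occurred in another gene of the array, and 42.2% of the stretches of Stfa1 occurred in BC100530. The share was 33.9% for Gm5483 and for 2010005H15Rik, which share them with each other, 24.7% for Stfa2 and 24.3% for Stfa2l1. It was 0 for Stfa3 and for Gm5416. The 1 annotated transcript of Gm5416 has 294 bases, so all of it was compared, in 245 stretches. Sequence beyond an annotated end was not compared, so a share of 0 does not show that counts are free of exchange between copies. Whether the counting divided or dropped reads that fit several genes is not given in the sources used here.

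The promoters show how the copies relate to each other, and they are printed as 100-base windows aligned on a shared A and T rich element, from RefSeq on GRCm38.p6, where each of the 7 genes had 1 entry. Capitals mark TTTAAAA, which opens the downstream part of each window that holds it, and the purine run GAGGAGGAG upstream of it. 2010005H15Rik holds neither within its 300-base promoter, so its window is set by position. That window lies downstream of its GENCODE start at chr16:36221468, and the gene has 3 annotated transcripts. Whether its RefSeq start is the counterpart of the starts of the other copies was not tested. Its transcript was 68.3% identical to that of Stfa1, and its promoter 48.3%.
Stfa2l1: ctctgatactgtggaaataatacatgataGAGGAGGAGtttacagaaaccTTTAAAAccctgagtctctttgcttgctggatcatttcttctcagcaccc
Gm5483: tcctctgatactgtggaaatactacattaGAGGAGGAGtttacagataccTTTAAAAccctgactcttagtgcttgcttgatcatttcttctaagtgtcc
Gm5416: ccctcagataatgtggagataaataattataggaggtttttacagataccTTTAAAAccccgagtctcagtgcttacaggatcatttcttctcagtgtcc
2010005H15Rik: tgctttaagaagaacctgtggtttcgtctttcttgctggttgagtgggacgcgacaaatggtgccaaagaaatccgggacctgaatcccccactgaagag
Stfa1: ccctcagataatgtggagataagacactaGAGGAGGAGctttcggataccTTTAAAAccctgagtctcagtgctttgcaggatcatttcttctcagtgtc
Stfa2: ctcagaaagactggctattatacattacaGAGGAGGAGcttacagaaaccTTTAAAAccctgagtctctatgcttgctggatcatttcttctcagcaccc
Stfa3: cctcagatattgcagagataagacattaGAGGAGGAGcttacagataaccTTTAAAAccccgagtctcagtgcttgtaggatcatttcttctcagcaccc

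The windows are, in this order, chr16:36156728-36156827, chr16:36184133-36184232, chr16:36210276-36210375, chr16:36221502-36221601 and chr16:36277068-36277167 on the plus strand, and chr16:36408343-36408442 and chr16:36455374-36455473 on the minus strand. In the 5 genes with both elements, GAGGAGGAG began 21 bases before TTTAAAA, or 22 bases in Stfa3. TTTAAAA began 29 to 33 bases before the RefSeq start of these 5 genes and 77 bases before that of Gm5416. Searched on both strands of the 300-base promoters, TTTAAAA was found in 6 of 7 genes against 8.74% of 32851 promoters, and GAGGAGGAG in 5 of 7 against 3.37%. GAGGAA, the core recognised by ETS factors such as PU.1, was found in 5 of 7 against 28.3%, and it cannot lie inside GAGGAGGAG. The Cebp-type core TTGCNNAA was found in Stfa1 and Gm5416, 2 of 7, against 10.8%. The core of Gata1-type factors, AGATAA, was found in Stfa1, Stfa3 and Gm5416, 3 of 7, against 11.2%. Among the 6 genes other than 2010005H15Rik, the 15 pairs of promoters were 60.1% to 90.5% identical, with a median of 72.4%. Against the promoter at the RefSeq start of 2010005H15Rik the identity was 46.5% to 50.7%. These are matches of letters in duplicated sequence, and the motifs were not tested for activity. TTTAAAA and GAGGAGGAG are shown as elements that most of these promoters share. Duplicated copies are not independent of each other, so no enrichment is read from the counts beside the shares of all promoters.

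Stefin A transcripts were concentrated in the neutrophil lineage at both stages. Levels are CPM, the UMIs of a gene scaled to the UMI total of the same cells in the same library, with the standard deviation between libraries. Classes are clusters named from marker genes that exclude all stefins. The neutrophil-like clusters were led by Ngp, Lcn2, Ltf, Camp and S100a9 at E16.5 and by Ngp, Camp, Lcn2, Retnlg and Ly6g at P3, which are granule, alarmin and surface genes of neutrophils.

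In neutrophil-like cells the 7 genes together gave 73986 ± 5524 CPM at E16.5 (SD, n = 5, range 64762 to 79577) and 65183 ± 11950 at P3 (SD, n = 4, range 56397 to 82830). Progenitor-like cells, led by the primary granule genes Elane, Prtn3, Ctsg and Mpo, followed with 25694 ± 2999 at E16.5 and 16328 ± 5083 at P3. At E16.5 a cluster of this class, 1426 barcodes beside 1735, was led by Mpo and Ctsg but also by Ltf, a secondary granule gene. The level is thus not that of cells with primary granule genes alone. The libraries of neutrophil-like and progenitor-like cells did not overlap with each other or with any other class at either stage. Neutrophil-like cells held 71.8% ± 4.5 of all UMIs of the 7 genes at E16.5 and 63.5% ± 2.1 at P3, and progenitor-like cells held 11.9% and 9.61%. These are shares of the stefin UMIs of all passing barcodes, of which 8.82% at E16.5 and 23.8% at P3 lay in removed doublets or in clusters left unnamed. Of the stefin UMIs in named classes, neutrophil-like cells held 78.7% ± 4.6 at E16.5 and 83.4% ± 2.1 at P3, so the order of the stages turned with the denominator.

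Monocyte-like cells, led by F13a1, Ccr2 and Ms4a6c, came next at E16.5 with 2935 ± 328 (range 2564 to 3313), above every library of endothelial-like cells, at 1567 ± 407. They overlapped with mesenchymal-like cells, at 1566 ± 1244 (range 285 to 2934). At P3, endothelial-like cells at 5570 ± 3425, mesenchymal-like cells at 3146 ± 2254 and monocyte-like cells at 2810 ± 1125 overlapped one another. The P3 cluster named mesenchymal-like was led by Ins2 and Ins1, hormone genes of pancreatic islets, ahead of collagen genes. The means of all 3 lay above that of hepatocyte-like cells, 823 ± 709, whose range overlapped with mesenchymal-like cells but not with the other two classes. From there down to erythroid-like cells, the last at 279 ± 92.9, neighbours overlapped. At E16.5 the classes from endothelial-like down to B-like cells, at 467 ± 265, likewise overlapped with their neighbours. Erythroid-like cells, used below as the class with no known stefin A expression, stood at 603 ± 377 at E16.5, from 156 to 1005 between libraries.

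**Figure D1:**
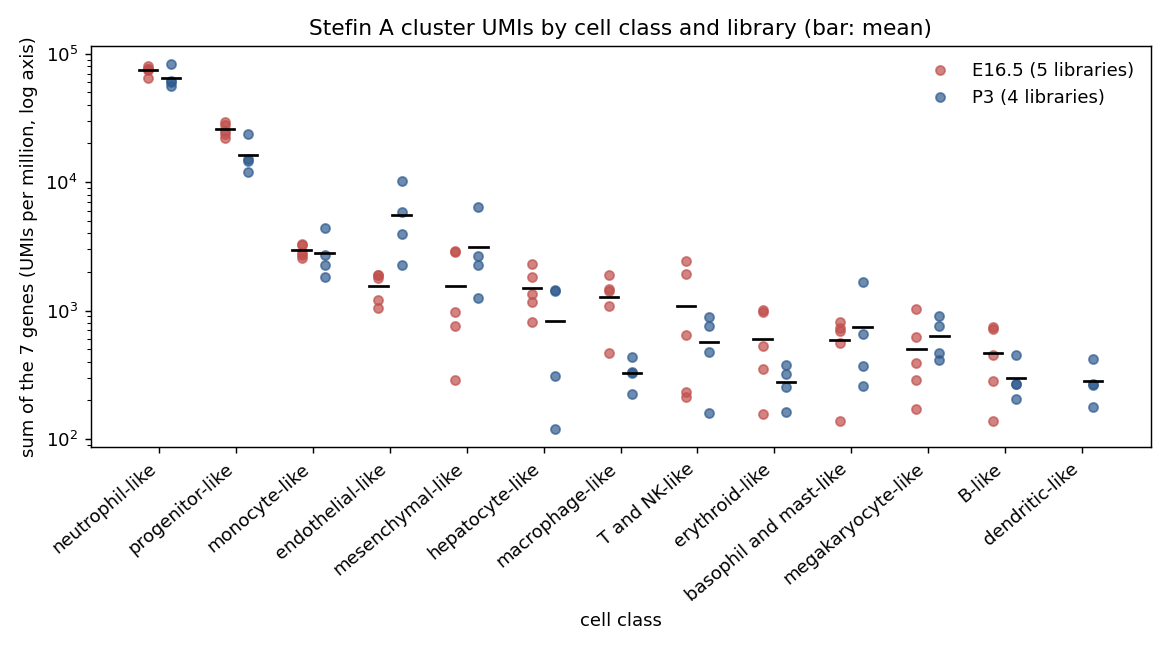
Sum of the 7 stefin A genes in CPM, on a log axis, in each cell class (horizontal axis), with 1 point per library, red for the 5 E16.5 and blue for the 4 P3 libraries, and a black bar for the mean. Neutrophil-like cells lie between 56397 and 82830 and progenitor-like cells below them, while the other classes lie lower, with wide overlap.

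The low levels outside the neutrophil lineage stood beside UMIs of neutrophil genes in the same cells. The level of the 7 genes divided by the summed level of S100a8, S100a9, Ngp, Camp, Ltf and Lcn2, 6 neutrophil genes, was 0.33 in neutrophil-like cells at E16.5 (range 0.30 to 0.35) and 0.43 in erythroid-like cells (range 0.40 to 0.47), without overlap. At P3 it was 0.20 in neutrophil-like cells (range 0.15 to 0.25), 0.20 in erythroid-like cells (range 0.14 to 0.26) and 0.21 in endothelial-like cells (range 0.17 to 0.25). In monocyte-like cells it was 0.36 at E16.5 (range 0.32 to 0.39) and 0.17 at P3 (range 0.13 to 0.20). That overlapped with neutrophil-like cells at both stages. Against Ngp alone the classes differed more at E16.5, where the ratio of Stfa1 to Ngp was 2.17 in neutrophil-like cells (range 1.88 to 2.35) and 7.61 in erythroid-like cells (range 6.14 to 9.69). At P3 this ratio was 0.68 (range 0.40 to 1.10) and 0.83 (range 0.44 to 1.43). P3 endothelial-like cells carried the 6 genes at 25456 CPM and mesenchymal-like cells at 14374. How much of the stefin UMIs in these classes came from free RNA or from cells captured together was not tested.

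Many cells of other classes held a stefin UMI. With every cell thinned to 1000 UMIs, 43.8% of erythroid-like cells at E16.5 and 25.4% at P3 had at least 1 UMI of the 7 genes, against 100% of late neutrophil-lineage cells at both stages. Unthinned, the erythroid-like shares were 92.2% and 67.1%, at median depths of 4958 to 9634 and of 2628 to 5388 UMIs. A stefin UMI in a single cell was thus no mark of the neutrophil lineage in these libraries.

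Monocyte-like cells differed from erythroid-like cells in some ratios among their stefin UMIs, though not in all. At E16.5, Stfa1 stood at 2098 ± 195 CPM in monocyte-like cells and at 348 ± 219 in erythroid-like cells, with no overlap between libraries, and at P3 at 1982 ± 931 and 139 ± 66.3, again with no overlap. Stfa2 was at 41.9 ± 15.5 and 23.7 ± 14.6 at E16.5, and at 37.0 ± 10.7 and 17.0 ± 6.1 at P3, and the ranges of these classes overlapped at both stages. Within a library, Stfa2 was higher in monocyte-like than in erythroid-like cells in 4 of 5 libraries at E16.5 and 4 of 4 at P3. Stfa1 UMIs exceeded Stfa2 UMIs 55.5 times in monocyte-like cells at E16.5 (range 36.7 to 80.9) and 54.4 times at P3 (range 36.9 to 86.7). In neutrophil-like cells the ratio was 8.60 and 6.08, and in erythroid-like cells 14.5 and 8.40. It was higher still in progenitor-like cells, 125 and 88.6, and in the primary granule cells of the neutrophil lineage described below, 318 and 139, so a high ratio was not particular to monocyte-like cells. With doublets kept, the ratio in monocyte-like cells was lower, 31.6 at E16.5 (range 25.4 to 37.7) and 14.7 at P3 (range 10.6 to 18.7). The ratio of Stfa1 to Stfa3 overlapped between monocyte-like and erythroid-like cells at both stages. At E16.5 it was 8.85 (range 7.46 to 9.73) in monocyte-like and 7.12 (range 6.58 to 7.51) in erythroid-like cells. At P3 it was 7.61 (range 3.65 to 12.0) and 4.75 (range 2.34 to 7.27).

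The ratio of Stfa1 to its near-copy BC100530 set monocyte-like cells apart most clearly. It was 3.83 in monocyte-like cells at E16.5 (range 2.61 to 4.49) and 7.30 at P3 (range 5.19 to 9.99), and with doublets kept 2.96 (range 2.57 to 3.31) and 3.04 (range 2.03 to 3.88). In neutrophil-like cells it was 1.39 (range 1.37 to 1.41) and 1.37 (range 1.15 to 1.67), and in erythroid-like cells 1.42 and 1.42. The mean ratio of every other class and neutrophil-lineage group was between 1.19 and 1.74. Stfa1 made up 71.6% ± 2.9 of the stefin UMIs of monocyte-like cells at E16.5 and 69.2% ± 6.0 at P3, and Stfa3 8.15% and 11.6%. After thinning, 45.4% of monocyte-like cells at E16.5 and 45.6% at P3 had a Stfa1 UMI, against 29.7% and 13.9% of erythroid-like cells. For Stfa2 the shares were 1.89% and 2.28% against 2.72% and 1.91%, which at E16.5 is the opposite order to that of the levels, so no order is read from these shares.

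Within the neutrophil lineage the genes came on in steps. Neutrophil-like cells and the progenitor-like clusters led by primary granule genes were clustered again. Sub-clusters were named from genes of successive maturation steps, and no stefin was used. Primary granule cells were named from Prtn3 and Ctsg, with Ms4a3 at E16.5 and with Mpo and Elane at P3. Secondary granule cells were named from Camp at E16.5 and from Ngp and Lcn2 at P3. Late cells were named from Retnlg, Mmp8 and Mmp9 at E16.5. The larger late sub-cluster at P3 was named from Retnlg alone, and its leading gene Ly6g is a general neutrophil marker. Late cells at E16.5 were also led by the activation genes Thbs1, Cxcl2, Dusp1 and Osm, and a small late sub-cluster at P3 by Il1b and Cxcl2, with a median of 1699 UMIs. Gm5416, not used in the naming, was also among the leading genes of late cells at E16.5. Secondary granule cells at E16.5 were led by Hmgn2 and Rpa3 and held Cks2 and Hmgb2, genes of dividing cells, with Camp further down. Their mean standardised level of the secondary granule genes was 0.35, against 0.30 in late cells at E16.5. At P3 it was 0.91 in secondary granule cells and 1.09 in the larger late sub-cluster, so the later steps are told apart by the late and primary genes more than by the secondary ones. The cells of E16.5 and P3 formed separate sub-clusters. P3 library B had few secondary granule cells, 359 beside 1175 late cells, with 13.9% of its stefin UMIs against 37.5% to 40.2% in libraries A, C and D. The unnamed P3 sub-cluster led by histone genes came mostly from it, with 625 of 634 barcodes. Without library B, an alternative chosen after seeing the data, the P3 levels in secondary granule cells and the ratios of late to secondary granule cells moved by at most 1.13 times. The order primary, secondary, late is that of known markers, not a measured time.

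Stfa1 and Gm5483 were already abundant in primary granule cells. Stfa1 stood at 15465 ± 1113 CPM there at E16.5, at 44206 ± 2056 in secondary granule cells and at 30950 ± 1717 in late cells. At P3 it was 9031 ± 3071, 31620 ± 10513 and 29956 ± 9821. From secondary to late cells Stfa1 was lower in 8 of 9 libraries, in 5 of 5 at E16.5 and 3 of 4 at P3, with a median ratio of 0.69 at E16.5 (range 0.68 to 0.74) and 0.94 at P3 (range 0.91 to 1.01). Gm5483 went from 2590 ± 172 to 15582 ± 1080 and 17252 ± 1787 at E16.5, and from 1861 ± 457 to 12601 ± 2187 and 17282 ± 2532 at P3. BC100530 resembled Stfa1, with 8909 ± 857, 28562 ± 1554 and 26002 ± 1847 at E16.5.

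The other 5 genes were low in primary granule cells and reached their highest levels in late cells in all 9 libraries. At E16.5, Stfa2 went from 49.9 ± 9.0 in primary granule cells to 2429 ± 250 in secondary granule cells and 5819 ± 634 in late cells. At P3 it went from 67.0 ± 16.3 to 3440 ± 629 and 7596 ± 718. 2010005H15Rik went from 34.5 ± 7.1 to 941 ± 180 and 4153 ± 574 at E16.5, and from 22.6 ± 8.2 to 972 ± 243 and 4338 ± 1089 at P3. Its late cells stood 4.43 times above secondary granule cells at E16.5 (median, range 3.99 to 5.03) and 4.33 times at P3 (range 3.87 to 5.43). At E16.5 this step overlapped with that of Gm5416, 4.32 times (range 3.502 to 4.854), and at P3 it was above that of the other 6 genes in every library.

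Stfa3 went from 142 ± 35.6 in primary granule cells to 5198 ± 505 and 8579 ± 1243 at E16.5, and from 166 ± 53.2 to 5678 ± 1726 and 11112 ± 3529 at P3. Stfa2l1 went from 146 ± 31.3 to 4906 ± 323 and 6193 ± 641 at E16.5, and from 213 ± 70.8 to 5096 ± 1139 and 7001 ± 1452 at P3. Gm5416, the least counted of the 7, went from 20.9 ± 3.5 to 138 ± 6.0 and 578 ± 89.0 at E16.5, and from 14.6 ± 1.6 to 76.4 ± 22.3 and 238 ± 75.5 at P3.

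The ratio of late to primary granule cells differed widely between the genes, and for some also between the stages. At E16.5 its median over 5 libraries was 1.98 for Stfa1 (range 1.82 to 2.18), 6.73 for Gm5483 (range 5.69 to 7.18), 29.7 for Gm5416 (range 21.0 to 35.8) and 42.9 for Stfa2l1 (range 34.8 to 52.4). It was 64.6 for Stfa3 (range 45.3 to 70.3), 109 for 2010005H15Rik (range 99.7 to 152) and 113 for Stfa2 (range 101 to 135). At P3 the median over 4 libraries was 3.33 for Stfa1 (range 3.096 to 3.582), 9.51 for Gm5483 (range 8.30 to 10.4), 15.99 for Gm5416 (range 11.8 to 20.7) and 34.2 for Stfa2l1 (range 27.9 to 38.5). It was 68.6 for Stfa3 (range 52.9 to 81.9), 107 for Stfa2 (range 99.7 to 157) and 192 for 2010005H15Rik (range 147 to 277). Between the stages, Stfa1 and Gm5483 had a larger ratio at P3 and Gm5416 a smaller one, without overlap and without a test. The share of all genes that did not overlap in this ratio was not computed, and the stages formed separate sub-clusters. Nothing particular to these genes is read from it. Within each stage, Stfa1, Gm5483 and Gm5416 did not overlap with one another, whereas Stfa2 and 2010005H15Rik overlapped at both stages. For some genes the level in primary granule cells was not far above that in erythroid-like cells. Erythroid-like cells held Stfa2 at 23.7 CPM at E16.5 and 17.0 at P3, against 49.9 and 67.0 in primary granule cells, and 2010005H15Rik at 15.9 and 8.81, against 34.5 and 22.6. The share from free RNA was not tested, so no order among the genes with the larger ratios is read. Of the genes with the larger ratios, some lay at both ends of the array, Stfa2 and Stfa3 at one and Stfa2l1 at the other, and 2010005H15Rik lay beside Stfa1, which had the lowest ratio.

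**Figure D2:**
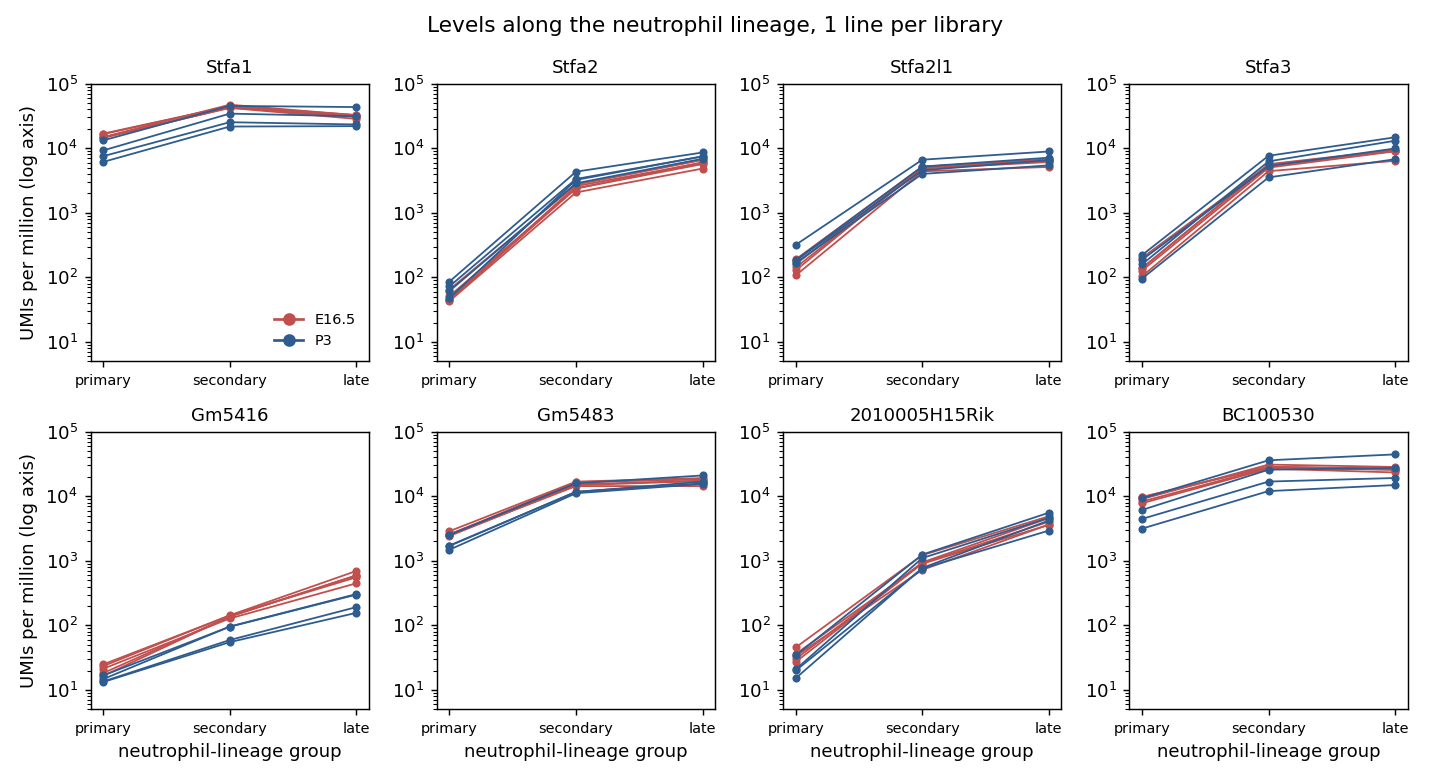
Levels of the 7 genes and BC100530 in CPM, on a log axis shared by all panels, in primary granule, secondary granule and late cells, with 1 line per library in red for E16.5 and blue for P3. Stfa1, Gm5483 and BC100530 start above the other 5 genes, which climb at both steps in all 9 libraries. From secondary granule to late cells Gm5483 climbs in 8 of 9 libraries and Stfa1 in 1 of 9. BC100530 climbs at that step in 4 of 4 libraries at P3 and in 0 of 5 at E16.5.

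As a result, the make-up of the stefin UMIs shifted along the lineage. Shares are of UMIs and were not divided by transcript length. At E16.5, primary granule cells had 83.8% ± 1.7 Stfa1 and 14.1% ± 1.3 Gm5483, and the mean share of each of the other 5 genes was under 1%. Late cells had 42.2% ± 1.8 Stfa1, 23.4% ± 0.9 Gm5483, 11.6% ± 1.0 Stfa3, 8.41% ± 0.27 Stfa2l1, 7.90% ± 0.26 Stfa2, 5.64% ± 0.54 2010005H15Rik and 0.78% ± 0.08 Gm5416. After thinning to 1000 UMIs, a Stfa2 UMI was found in 2.99% of primary granule cells and 98.1% of late cells at E16.5, and in 4.63% and 99.0% at P3. For Stfa1 these shares were 89.6% and 100.0% at E16.5, and 73.3% and 99.7% at P3.

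The 5 E16.5 libraries had nearly the same make-up, whereas the 4 P3 libraries did not. Stfa1 was 45.3% of the stefin UMIs of late cells in library A and 43.4% in library B, but 31.5% in library C and 32.0% in library D. Stfa3 was the reverse, with 10.3% in A, 9.39% in B, 18.7% in C and 20.3% in D. In late cells Stfa1 stood at 43368, 31179, 21971 and 23306 CPM in libraries A to D, and BC100530 at 44473, 27407, 14909 and 19176. Stfa3 stood at 9908, 6752, 13047 and 14739. Libraries A and B were thus high in Stfa1 and BC100530 and low in Stfa3, and C and D the other way round. The 95% exact Poisson intervals, which cover counting error only, were as narrow as 21816 to 22128 for Stfa1 in C and 31026 to 31332 in B. A and B are the libraries whose barcodes also occur under the Jag1Ndr/Ndr label. Library B also held all barcodes of the matrix labelled Jag1Ndr/+ replicate 2. C carried the Jag1Ndr/Ndr label only and D the Jag1Ndr/+ label, so a source of this difference cannot be told apart from the labels.

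**Figure D3:**
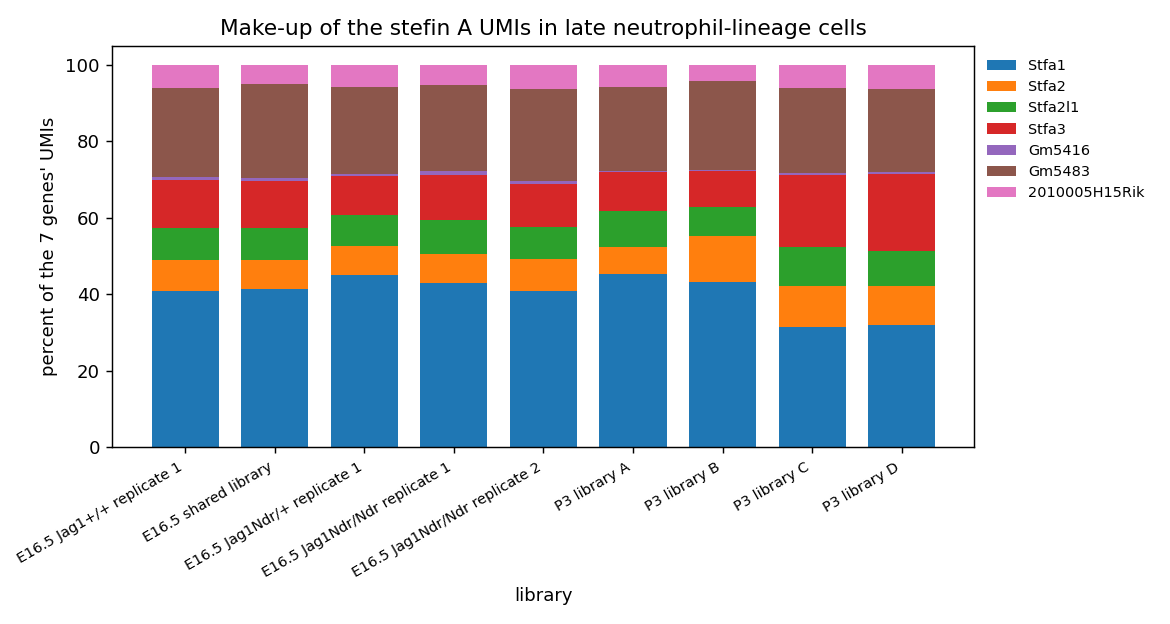
Share of each of the 7 genes in their summed UMIs, in percent, in late neutrophil-lineage cells of each library (stacked bars, 1 per library). Stfa1 takes 40.9% to 45.0% in the 5 E16.5 libraries and in P3 libraries A and B 45.3% and 43.4%, against 31.5% and 32.0% in C and D, where Stfa3 is larger.

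Between stages only Gm5416 passed the test among the 7 genes, with a lower level at P3. UMIs were summed per library and tested with edgeR's quasi-likelihood test over all genes listed at both stages, with Benjamini-Hochberg adjustment and a threshold of 0.05, in 4 populations: all passing barcodes, which still held the doublets, and neutrophil-like, late and monocyte-like cells, without them. All 7 genes passed the count filter in each. In neutrophil-like cells 1 of the 7 was called, against 51.4% of 10440 genes tested. In all passing barcodes it was 1 of 7 against 54.0% of 14504, in late cells 1 of 7 against 54.5% of 9174, and in monocyte-like cells 1 of 7 against 49.8% of 10620. In each case the gene was Gm5416. The median log2 difference of the 7 in neutrophil-like cells was -0.27, and that of all genes tested 0.02.

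Gm5416 in neutrophil-like cells stood at 350.5 CPM in Jag1+/+ replicate 1, 334 in the shared library, 319 in Jag1Ndr/+ replicate 1, 474 in Jag1Ndr/Ndr replicate 1 and 331 in Jag1Ndr/Ndr replicate 2 at E16.5. At P3 it stood at 87.6, 99.4, 171 and 165 in libraries A to D. Every P3 library was below every E16.5 library, as for 16.4% of the genes tested, and P3 libraries A and B were the lowest. The fitted difference, P3 minus E16.5, was -1.56 on the log2 scale (SE 0.22, edgeR adjusted p = 8.4e-05). Here and below, SE is the size of the difference divided by the square root of the F statistic of the edgeR test.

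In late cells Gm5416 stood at 556, 595, 449, 696 and 593 CPM at E16.5, in the same order of libraries, and at 156, 192, 299.5 and 305 in P3 libraries A to D. The groups again did not overlap, with all P3 libraries the lower, as for 20.2% of the genes tested, and with a difference of -1.30 (SE 0.21, edgeR adjusted p = 9.4e-05). In secondary granule cells, which were not tested, the E16.5 libraries lay between 128 and 143 and the P3 libraries between 55.0 and 96.0. Over all passing barcodes the difference was -1.40 (SE 0.20, edgeR adjusted p = 0.000216), and without normalization factors it was -0.78 (edgeR adjusted p = 0.00591). This is a measure where fewer cells of a type and less RNA per cell cannot be told apart. After thinning, 39.6% of late cells at E16.5 and 21.0% at P3 had a Gm5416 UMI, from 86.7% and 45.5% unthinned. In monocyte-like cells, with 8 to 59 Gm5416 UMIs per library, the difference was -0.86 (SE 0.28, edgeR adjusted p = 0.0211), and without P3 library C it was -0.63 (edgeR adjusted p = 0.0589).

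The stages also differed in digestion, in the software version in the file headers and in the gene list, and their effects on Gm5416 cannot be told apart from that of age. Late cells at E16.5 had Gm5416 among their leading genes beside activation genes. So did a P3 cluster of 188 barcodes led by Il1b, Cxcl2 and Dusp1. The larger late sub-cluster at P3 had none of Thbs1, Cxcl2, Dusp1 and Osm among its leading genes. Whether Gm5416 levels go with activation was not tested. The longest coding transcript annotated for Gm5416 has 294 bases, the shortest of the 7 genes, against 412 for Stfa3 and 617 for Stfa1. A gene list with another end for this gene would change its count, and which gene models the authors used at each stage is not given in the sources used here.

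For the other 6 genes no difference passed this test on all 9 libraries, though some did under other settings. In neutrophil-like cells the log2 differences were -0.34 for Stfa1 (SE 0.25, edgeR adjusted p = 0.271), -0.27 for Gm5483, -0.31 for 2010005H15Rik, 0.16 for Stfa2, -0.03 for Stfa2l1 and 0.05 for Stfa3. P3 library A held the highest Stfa1 level of all 9 libraries, 43449 CPM, and decided this result. Without it Stfa1 was lower at P3 by -0.67 (edgeR adjusted p = 0.00855) and Gm5483 by -0.47 (edgeR adjusted p = 0.0239). Without library A, Stfa1 (-0.71), Gm5483 (-0.52) and 2010005H15Rik (-0.58) also passed over all passing barcodes, and Stfa1 (-0.56) and Gm5483 (-0.85) in monocyte-like cells, each lower at P3. Without library B, Stfa3 passed as higher at P3 in late cells (0.56) and in monocyte-like cells (0.36), and without library D Stfa2 passed as higher over all passing barcodes (0.47). With doublets kept, Stfa1 (-0.68), Gm5483 (-0.62) and 2010005H15Rik (-0.68) passed as lower at P3 in neutrophil-like cells. In monocyte-like cells with doublets kept, Stfa2 (1.29), Stfa2l1 (0.97), Stfa3 (0.66) and 2010005H15Rik (0.91) passed as higher at P3. Whether these genes passed thus changed with single libraries and with the doublet calls.

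Stfa2 in late cells came closest to a higher level at P3. It stood at 6036, 5684, 4840, 5969 and 6567 CPM in the E16.5 libraries, in the order given above, and at 6862, 8583, 7499 and 7442 in P3 libraries A to D. All P3 libraries were above all E16.5 libraries, as for 17.1% of the genes tested. The difference was 0.39 (SE 0.19, edgeR adjusted p = 0.0946), and it passed the threshold with DESeq2, with an adjusted p of 0.0141, and without normalization factors, with an edgeR adjusted p of 0.0470.

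**Figure D4:**
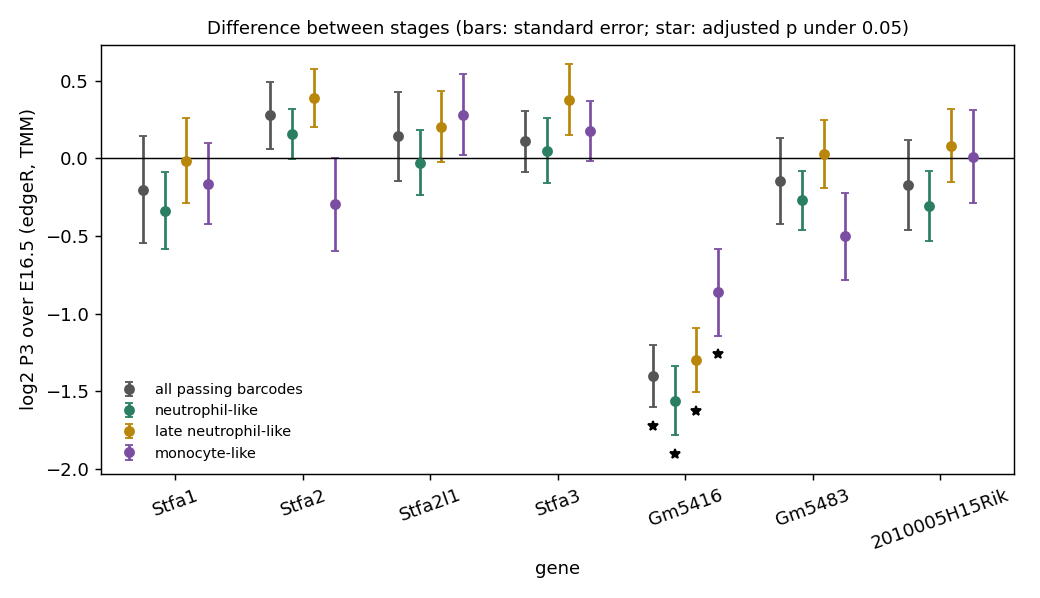
Difference between P3 and E16.5 for each of the 7 genes (horizontal axis) on the log2 scale, from edgeR, in 4 populations by colour. Bars show the standard error derived from the F statistic, and stars an adjusted p under 0.05. Gm5416 lies between -1.56 and -0.86 and carries all 4 stars, and the other 6 genes scatter around 0.

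Proteases and other cystatins moved in both directions between the stages. Of 26 listed genes, the other cystatins, papain-like cathepsins, cathepsin D and legumain, 20 were tested in neutrophil-like cells, 7 were called higher and 6 lower at P3, with a median log2 difference of -0.28. These 13 of 20 compare with 51.4% of all genes tested, and nothing particular to the list is read from the count. Higher were the secreted inhibitor Cst3 by 1.02, Cst7, an inhibitor active in endolysosomes, by 0.75, Fetub by 2.43, and the proteases Ctss by 2.09, Ctsh by 1.33, Ctsz by 0.66 and Ctsd by 0.49. Lower were stefin B (Cstb, -0.76), BC117090 (-0.75), Ctsb (-1.08), Ctsl (-1.03), Ctsf (-2.67) and legumain (Lgmn, -1.48). Among the known targets of stefins, Ctss and Ctsh were thus higher and Ctsb and Ctsl lower. Some of these levels were low. Ctss stood at 2.07 CPM at E16.5 and 8.92 at P3 in neutrophil-like cells, against 29.5 and 126 over all passing barcodes. Ctsl stood at 21.6 and 10.6, against 47.2 and 59.3. Ctsb stood at 180 and 87.4, against 367 and 401, and Ctsh at 21.4 and 57.0, against 23.6 and 57.6. Csta1 at -1.14 (SE 0.52, edgeR adjusted p = 0.0832) and BC100530 at -0.23 did not pass. In late cells Csta1 passed as lower at P3, at -1.46 (SE 0.45, edgeR adjusted p = 0.0136), with means of 3.30 CPM at E16.5 and 1.38 at P3. In monocyte-like cells, 5 of 18 were higher (Cst7, Ctsd, Ctsh, Ctss and Ctsz) and 2 lower (Ctsf and Lgmn), against 49.8% of all genes. In late cells it was 5 higher and 5 lower of 18, against 54.5%, and over all passing barcodes 9 higher and 8 lower of 23, against 54.0%. Fetub is a liver secretory gene. The part from free RNA in neutrophil-like cells was not tested for Fetub or for the other listed genes.

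By genotype at E16.5, the genes differed little. In neutrophil-like cells both Jag1Ndr/Ndr libraries were above the other 3 for Stfa1, Stfa2 and Stfa2l1, 3 of 7 genes, against 2.21% of 9922 genes. For 0 of 7 were both below, against 6.82%. The genes were chosen from this contrast in other cells of the same libraries, so the count supports nothing. Stfa2 stood at 4428 in Jag1+/+ replicate 1, 4062 in the shared library and 3804 in Jag1Ndr/+ replicate 1, and at 4737 and 4552 CPM in the Jag1Ndr/Ndr libraries. Stfa2l1 stood at 5992, 5826 and 4949 against 6336 and 6081. Stfa1 stood at 37261, 36890 and 33156 against 37427 and 40362, so that the nearest libraries of the groups differed by less than those within a group. With doublets kept, and with the top 10% of doublet scores removed, Stfa1 overlapped as well.

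In late cells 2 of 7 genes, Stfa1 and Stfa2l1, were above in both Jag1Ndr/Ndr libraries, against 3.06% of genes, and in secondary granule cells Stfa2 and Stfa2l1, against 2.68%. In primary granule cells 0 of 7 were, against 4.86%. With doublets kept it was 3 in primary granule cells, Stfa2, Stfa3 and 2010005H15Rik, and 3 in late cells, with Gm5416 added. The share of all genes was not computed with doublets kept, so nothing is read from these counts. In monocyte-like cells, without doublets, 0 of 7 were above in both Jag1Ndr/Ndr libraries, against 6.37%. Stfa2 there stood at 25.2, 29.0 and 60.3 CPM in Jag1+/+ replicate 1, the shared library and Jag1Ndr/+ replicate 1, and at 39.8 and 55.3 in the Jag1Ndr/Ndr libraries. 2010005H15Rik stood at 20.3, 29.8 and 46.7 against 35.8 and 41.2. For both genes Jag1Ndr/+ replicate 1 was the highest of the 5 libraries, and without it 5 of the 7 genes were above in both Jag1Ndr/Ndr libraries, against 9.57% of genes. This is the contrast from which the genes were picked, so nothing is read from that count. With doublets kept, Stfa2 stood at 75.7, 79.1 and 89.3 against 85.5 and 63.2, higher than without them in all 5 libraries and in another order.

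**Figure D5:**
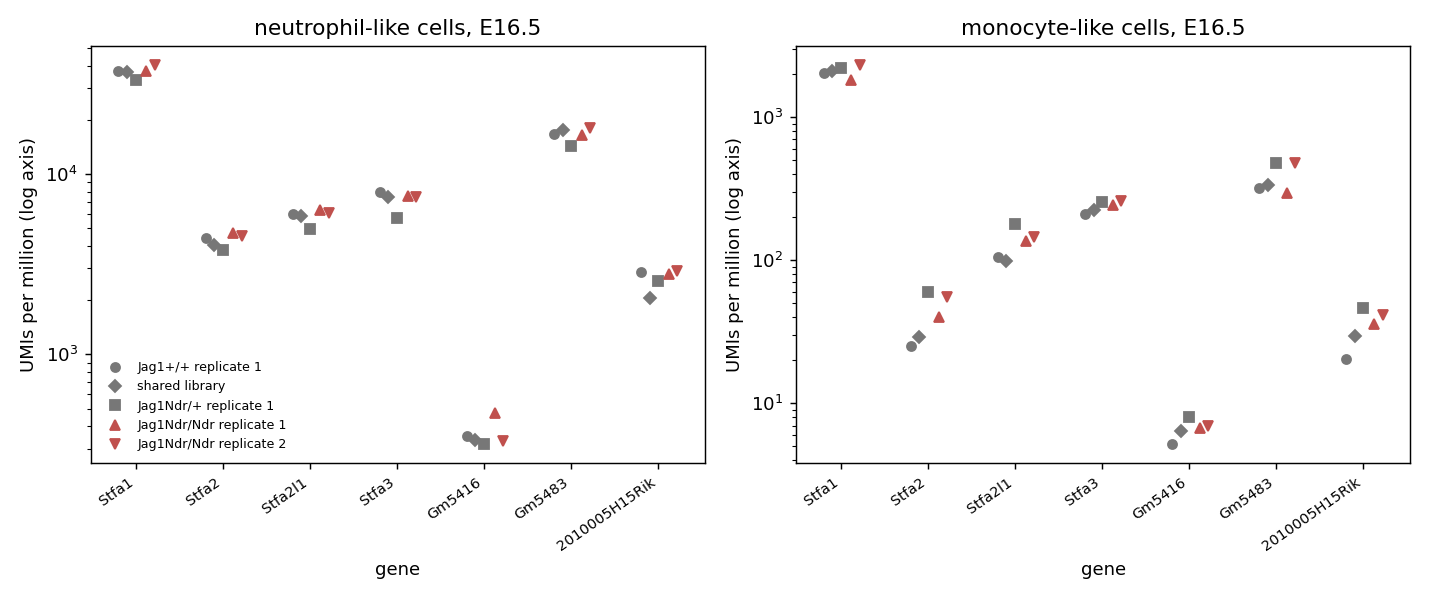
Levels of the 7 genes at E16.5 in CPM, on log axes, in neutrophil-like (left) and monocyte-like (right) cells, with 1 symbol per library, grey for Jag1+/+ replicate 1, the shared library and Jag1Ndr/+ replicate 1 and red for both Jag1Ndr/Ndr libraries. Red and grey symbols lie close together, and in monocyte-like cells they overlap for all 7 genes.

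The genes most like the sum of the 7 across classes were other neutrophil genes. Likeness is Pearson's r of log2 levels over the mean of each class and neutrophil-lineage group, a description over points that share libraries. At E16.5, over 15 groups and 8304 genes, the closest were S100a9 and S100a8, both at 0.997, which encode the calcium-binding alarmins that fill neutrophil cytoplasm, then BC100530 at 0.995, Slco4c1 and Wfdc21, both at 0.991. At P3, over 16 groups and 9437 genes, they were S100a9 at 0.999, Wfdc21 at 0.996, S100a8 at 0.995, 4930438A08Rik at 0.990 and BC100530 at 0.988. Of the single genes, 2010005H15Rik was the least like the sum, with 0.87 at E16.5 and 0.88 at P3.

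Genes around the array did not share its level. Of 21 other genes within 500 kb, BC100530 inside the array stood at 26611 ± 1846 CPM in neutrophil-like cells at E16.5 and 23024 ± 10993 at P3, and BC117090 at 110 ± 29.2 and 68.2 ± 21.2. The genes outside the array were at most 138 CPM in neutrophil-like cells, the value of Hcls1 at P3, a gene of blood cells in general that stood at 184 in monocyte-like cells. Csta1, the stefin A relative just outside, stood at 1.72 ± 0.61 and 1.07 ± 0.99, and Casr on the other side at 0.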

How the data were processed

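The 7 genes and all gene lists were chosen with earlier results of these data known. UMI counts per gene and barcode were analysed as deposited by the authors, without normalization. Per the submitters' processing notes, Cell Ranger 2.1.1, R 4.1.2, Seurat and mm10 were used, whereas the matrices name versions 3.0.2 (P3) and 3.1.0 (E16.5) of the 10x software, per the file headers. The counting options are not given in the sources used here. A barcode was kept from 1000 UMIs upward unless mt- genes took over 15% of them. Scrublet (scanpy 1.11.5) marked 9.85% to 13.4% of these as doublets in the E16.5 libraries and 4.11% to 9.50% in those of P3, and they were removed together with clusters made up mostly of doublets. The 2 stages were clustered separately on 2000 variable genes without stefins, with 30 principal components and Leiden resolution 1, and the neutrophil lineage of both stages again on 1000 genes at resolution 0.5. Sub-clusters led by genes of other cells, and 1 at P3 led by histone genes, stayed unnamed and entered no maturation group.

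Stage was tested on 22519 common genes with edgeR 4.0.16 (TMM, filterByExpr, quasi-likelihood test, Benjamini-Hochberg over all genes tested, no covariate), and the code was tested on simulated data. DESeq2 1.42.0, other scalings and filters, other doublet settings, each library left out and a replicate block were the alternatives. Named genes were the 7, the protease and cystatin list, neighbours within 500 kb and the 5 genes most alike per stage among those with at least 20 CPM in a class. The labels name separate individuals, and P3 libraries with shared barcodes were separated as described. Promoters and motifs were read with Biopython 1.88 from RefSeq on GRCm38.p6, coordinates from GENCODE vM21.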

Additional observations from a re-analysis of the deposited data

Results flagged for a closer look

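Among 80 groups of 4 or 5 libraries examined, single libraries stood far from the others in 8. For independent groups chance gives about 1 in 20. These groups overlap in libraries, cells and genes, so the count is not compared with that rate. At E16.5, Jag1Ndr/+ replicate 1 was low in Stfa3, with 5707 CPM in neutrophil-like cells against 7423 to 7958 in the others, and 6378 in late cells against 8962 to 9417. Jag1Ndr/Ndr replicate 1 was high in Gm5416 in neutrophil-like cells, with 474 against 319 to 350.5.

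At P3 the library that stood apart was always library A, and always above the other 3. Gm5483 was at 17514 in neutrophil-like cells against 12757 to 13215, and at 15856 in secondary granule cells against 11140 to 11770. Stfa2l1 was at 319 in primary granule cells against 168 to 185, and at 267 in monocyte-like cells against 129 to 151. The sum of the 7 genes in late cells was 95739 against 69698 to 72759.

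BC100530, the near-copy of Stfa1, changed direction between the stages. From secondary granule to late cells it was lower in 5 of 5 libraries at E16.5 and higher in 4 of 4 at P3, and the mean log2 ratio was 0.36 higher at P3. The difference was not tested, and the sub-clusters compared were separate at the 2 stages.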

How the results depend on the processing

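Gm5416 was lower at P3 under every alternative run, and its call was lost once, in monocyte-like cells without P3 library C. Counts of called genes over all genes tested stayed within 1.5 times of the values reported. Of the 7 genes, against 1 as reported in each population, 1 to 4 were called over all passing barcodes and in neutrophil-like cells, 1 to 2 in late cells and 0 to 5 in monocyte-like cells. Of the single-gene stage differences recomputed, 403 kept direction and call, 21 gained a call, 1 lost it and 44 changed sign, counted apart from the others. The latter had no call at first, and 1 of them, Stfa2 in monocyte-like cells with doublets kept, gained one. The causes were not tested. Without normalization factors, the median of all genes over all passing barcodes moved from 0.02 to 0.61 and the share of called genes that were higher at P3 from 51.1% to 85.6%. Gm5416 then stood at -0.78 over all passing barcodes, still called. Stfa1 stood at 0.38, Gm5483 at 0.43 and 2010005H15Rik at 0.46 over all passing barcodes, all below that median, and Gm5483 at -0.015 in late cells, and Stfa2, Stfa2l1 and Stfa3 gained a call over all passing barcodes.

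Leaving out 1 library at a time gave these ranges of the log2 stage difference. Over all passing barcodes they were -0.71 to 0.039 for Stfa1, -0.52 to 0.065 for Gm5483, -0.58 to 0.0092 for 2010005H15Rik, -0.27 to 0.36 for Stfa2l1 and -0.060 to 0.27 for Stfa3. In neutrophil-like cells they were -0.26 to 0.10 for Stfa2l1 and -0.070 to 0.24 for Stfa3. In late cells they were -0.35 to 0.16 for Stfa1, -0.16 to 0.15 for Gm5483, -0.15 to 0.24 for 2010005H15Rik and -0.019 to 0.33 for Stfa2l1. In monocyte-like cells they were -0.56 to 0.023 for Stfa1, -0.054 to 0.46 for Stfa2l1 and -0.38 to 0.19 for 2010005H15Rik.

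With doublets kept, Stfa2 at -0.21 and Stfa3 at -0.33 changed sign in neutrophil-like cells, Stfa1 at 0.0047 in late cells, and Stfa1 at 0.26, Stfa2 at 1.29 and Gm5483 at 0.49 in monocyte-like cells. The sum of the 7 genes in monocyte-like cells then rose to 3633 at E16.5 and 5108 at P3. With the top 10% of doublet scores removed, Stfa3 in neutrophil-like cells was at -0.021 and 2010005H15Rik in monocyte-like cells at -0.18. With at least 2000 UMIs per barcode, Stfa1 in late cells was at 0.017. In monocyte-like cells 2010005H15Rik was at -0.0019 with the DESeq2 style size factors and at -0.026 with DESeq2. The replicate numbers did not pair the libraries: the mean correlation of deviations was -0.00056 over 11 pairs with the same number and -0.00036 over 9 with different numbers. With a replicate block, Gm5416 stood at -1.63 in neutrophil-like cells, no call of the 7 genes changed, and Stfa3 in neutrophil-like cells (-0.059) and 2010005H15Rik in late (-0.0074) and monocyte-like cells (-0.023) changed sign.

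By genotype at E16.5, leaving out 1 library at a time gave 3 to 5 genes above in both Jag1Ndr/Ndr libraries, or in the 1 left, in neutrophil-like cells, 2 to 5 in late cells and 0 to 5 in monocyte-like cells. The highest counts came without Jag1Ndr/Ndr replicate 1 in neutrophil-like and late cells, where 10.3% and 12.4% of all genes were then above, and without Jag1Ndr/+ replicate 1 in monocyte-like cells, where 9.57% were. Over all 5 libraries left out in turn, the share of all genes was 3.49% to 12.8%, 4.16% to 12.4% and 9.57% to 21.4%. Since the genes were picked from this contrast, nothing is read from these counts. Counting error was small for the 7 genes in neutrophil-like cells and large for Gm5416 in monocyte-like cells.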
